A study of Mus musculus with 6 samples.

Results

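The 9 genes described here code for proteins that switch on the skeletal muscle program or restrain it. They are the myogenic regulatory factors Myod1, Myog and Myf6, the satellite cell factor Pax7, the MEF2 factors Mef2a, Mef2c and Mef2d, the homeobox factor Six4 and the class IIa histone deacetylase Hdac4. They were chosen by name with earlier results of these data known, and were found through their Entrez gene IDs. Of the 9, 9 were among the 13363 genes of the deposited expression table. Expression was measured by RNA sequencing of the gastrocnemius muscle in male Balb/c mice bought at 6 weeks of age. The 3 C26 muscles came from mice inoculated under the skin with 500000 cells of the colon-26 (C26) adenocarcinoma line, a mouse tumor that causes muscle wasting, and the 3 Control muscles came from mice without a tumor. The model rests on 1 tumor line in 1 strain, and the labels number the muscles of a group without saying that they came from separate mice, so p-values below measure the spread between these samples. Whole muscle holds fibers, satellite cells and other cells together, so that fewer cells of a type and less RNA per cell cannot be told apart.

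Myogenic regulatory factors are basic helix-loop-helix proteins that pair with E proteins and bind the E box in muscle genes. Myod1 and Myf5 commit cells to the muscle lineage, Myog drives their terminal differentiation, and Myf6 is the member most associated with mature fibers. MEF2 factors bind an A/T-rich element, often near E boxes, and act together with the myogenic factors. Class IIa deacetylases such as Hdac4 hold MEF2 factors in check until kinases send the deacetylases out of the nucleus. In denervated muscle, Hdac4 and Myog are known to take part in the induction of atrophy genes, which makes these factors of interest in a wasting muscle.

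Values are FPKM as deposited, that is, reads scaled to transcript length and to the mapped reads of the sample. Fold changes are differences of log2 values, C26 minus Control, after rescaling each sample to the same total (TPM), scaling by TMM factors and adding 1, which understates the change of genes with low values. Adjusted p-values are from limma with Benjamini-Hochberg adjustment over all 13363 genes, and a gene was called at an adjusted p under 0.05. The summed FPKM were lower in C26 muscles (531061 to 585169) than in Control muscles (626992 to 688300), so the direction of a difference can depend on the scaling. The 10 myofiber markers, such as Acta1 and Ckm, were listed in full and summed to between 74700 and 187000 FPKM in every muscle. No read counts were used, and the depth behind each value is unknown.

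Of the 9 factors, Mef2a was called higher in C26 muscles and Myod1 and Mef2c were called lower, while the other 6 were not called. In all, 33.8% of all genes were called, 19.4% as higher and 14.5% as lower, so 3 calls among 9 genes is close to the background and says nothing about the factors as a group. Past the study's fold criterion of 4, Myod1 and Mef2c were called, against 3.49% of all genes. This count rested on single muscles, since without C26 replicate 1 (-1.63 on the log2 scale) or Control replicate 2 (-1.92) Myod1 was called at under 4-fold and Mef2c was not called, which left 0 of the 9 factors past this criterion. The C26 and Control values did not overlap for 5 of the 9 factors (Mef2a and Mef2d with C26 higher, Myod1, Mef2c and Pax7 with C26 lower), and they did not overlap for 53.5% of all genes (27.0% with C26 higher and 26.5% with C26 lower). The median absolute log2 fold change was 0.66 for the 9 factors and 0.49 for all genes.

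**Figure D1:**
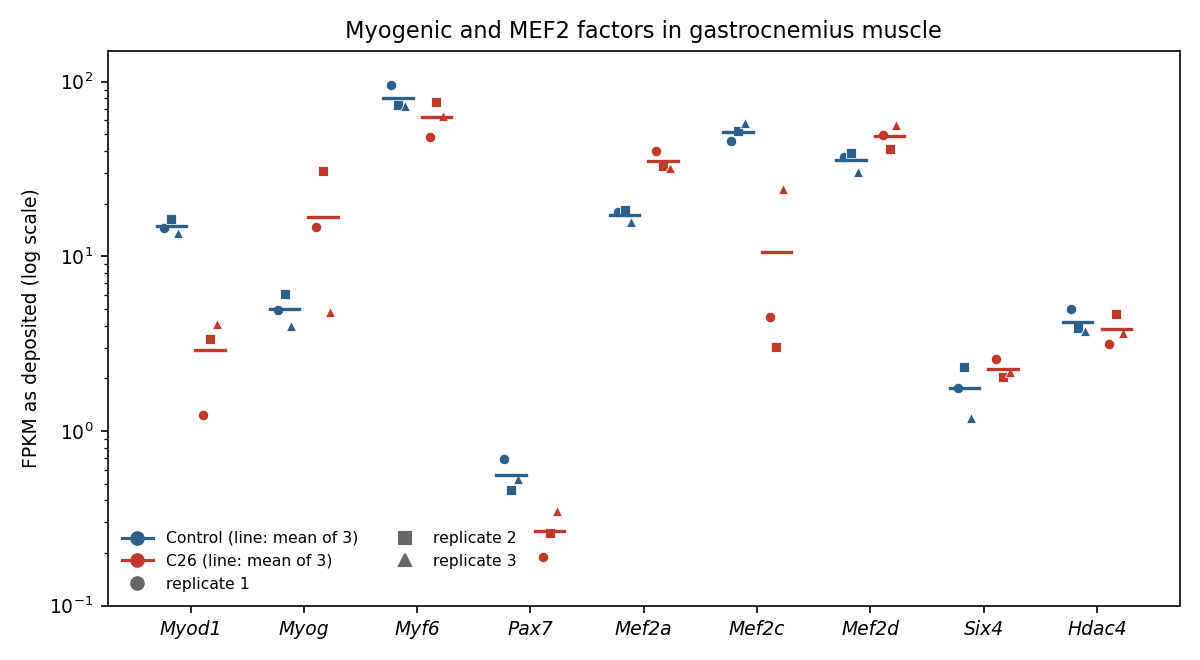
FPKM of the 9 factors (log axis) in each of the 3 Control muscles (blue) and 3 C26 muscles (red), with the replicate number given by the symbol and the group mean by a line. Myod1 and Mef2c lie lower and Mef2a higher in every C26 muscle than in every Control muscle, and C26 replicate 3 lies apart from the other C26 muscles for Myog and Mef2c.

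Myod1 (Entrez gene ID 17927) lies on chromosome 7 of GRCm38, from 46376474 to 46379092. Its level was 1.24, 3.36 and 4.12 FPKM across the C26 muscles, against 14.6, 16.4 and 13.6 FPKM in the Control muscles. Every C26 muscle was thus below every Control muscle, and the Control values lay close together. The mean fell from 14.8 ± 1.44 (SD, n = 3) to 2.91 ± 1.49 FPKM (SD, n = 3), at -2.05 on the log2 scale (SE 0.38, adjusted p = 0.0108, limma), a 4.14-fold difference. Myod1 stayed called with each of the 6 muscles left out in turn, with log2 fold changes between -2.29 and -1.63. An ordinary linear model without moderation gave an adjusted p of 0.0541 in place of the limma value.

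Myog (Entrez gene ID 17928), the differentiation factor, had 14.7, 30.9 and 4.82 FPKM across the C26 muscles, against 4.94, 6.08 and 4.01 FPKM in the Control muscles. C26 replicates 1 and 2 were above every Control muscle, and C26 replicate 3 lay within the Control range. The means were 16.8 ± 13.2 and 5.01 ± 1.04 FPKM (SD, n = 3 each), and the log2 difference of 1.51 (SE 0.58, adjusted p = 0.0884, limma) was not called. The 95% interval of this log2 fold change reached from 0.10 to 2.91. With C26 replicate 3 left out, the log2 fold change was 2.23 and Myog was called (adjusted p = 0.007, limma), and over the 6 fits with a muscle left out it lay between 0.94 and 2.23.

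Myog is also a gene in whose promoter the elements read by the myogenic and MEF2 factors are close to each other, and its sequence is shown for that reason. These are the 250 bases before the start of Myog on the plus strand, at chr1:134289754-134290003 of GRCm38.p6, from RefSeq. Capitals mark the E boxes (CANNTG) and the MEF2 core (TANNNNTA in which each N is A or T), and both motifs read alike on either strand.
Myog: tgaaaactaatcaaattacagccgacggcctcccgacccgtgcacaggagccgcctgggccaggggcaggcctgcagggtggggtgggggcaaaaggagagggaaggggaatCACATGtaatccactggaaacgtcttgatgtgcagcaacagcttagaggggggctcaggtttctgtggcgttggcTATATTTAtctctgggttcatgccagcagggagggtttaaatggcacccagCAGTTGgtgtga
The E boxes begin 138 and 12 bases before the start and the MEF2 core begins 63 bases before it, with no overlap between the matches. Among 32851 RefSeq promoter windows of the same length, 66.2% held an E box, 8.56% held a MEF2 core and 5.88% held both. Promoter windows were found for 7 of the 9 factors, 10 windows in all. An E box was present in windows of Myog and Mef2c, and so was a MEF2 core. In the first of 3 Mef2c windows the MEF2 core began 145 bases and the E boxes began 234 and 100 bases before the start. These matches describe the letters of the windows, and binding was not measured.

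Myf6 (Entrez gene ID 17878) had the highest mean of the 9 factors in both groups, although Mef2d exceeded it in C26 replicate 1. It had 48.2, 76.1 and 63.4 FPKM across the C26 muscles, against 95.2, 73.6 and 72.7 FPKM in the Control muscles, and the groups overlapped. The log2 difference was -0.16 (SE 0.21, adjusted p = 0.576, limma), with a 95% interval from -0.67 to 0.35. Myf5, the remaining myogenic regulatory factor, was near the lower end of the table, with 0.41 to 0.69 FPKM in C26 muscles and 0.52 to 1.22 FPKM in Control muscles, and was not called (adjusted p = 0.345, limma).

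The relative amounts within the family were compared next. Myod1 made up 1.92%, 3.03% and 5.66% of the summed FPKM of Myod1, Myog, Myf6 and Myf5 across the C26 muscles, against 12.6%, 16.9% and 14.9% in the Control muscles. Myog made up 22.7%, 27.8% and 6.62% across the C26 muscles, against 4.26%, 6.26% and 4.41% in the Control muscles. Such shares are taken within a muscle and do not depend on the scaling between muscles. The groups did not overlap for either share, and the two-sided exact permutation test gave p = 0.1 for each, the smallest p that 3 muscles against 3 allow. The Myf6 share overlapped between the groups, at 76.7% ± 9.52 and 79.3% ± 3.28 (SD, n = 3 each, exact permutation test, p = 0.6). The log2 ratio of Myog to Myod1 was 3.08, 3.0 and 0.20 across the C26 muscles, against -1.44, -1.35 and -1.60 in the Control muscles, so Myog exceeded Myod1 in every C26 muscle and Myod1 exceeded Myog in every Control muscle. This ratio differed by 3.56 on the log2 scale between the groups. The ratio of Myf6 to Myod1 differed by 1.89. For each, p was 0.1 in the exact permutation test, also after adjustment over the 5 ratios compared.

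Mef2a (Entrez gene ID 17258), on chromosome 7 from 67231163 to 67376456, was the factor with the smallest adjusted p of the 9. Its level was 40.1, 32.9 and 32.1 FPKM across the C26 muscles, against 17.8, 18.3 and 15.6 FPKM in the Control muscles. The groups were well apart and each was tight. The mean rose from 17.3 ± 1.43 to 35.0 ± 4.4 FPKM (SD, n = 3 each), at 1.2 on the log2 scale (SE 0.17, adjusted p = 0.00588, limma), a 2.30-fold difference. Mef2a was called in each of the 9 other settings tried and with each of the 6 muscles left out, with log2 fold changes between 0.86 and 1.31.

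Mef2c (Entrez gene ID 17260), on chromosome 13 from 83504017 to 83667079, moved the other way. Its level was 4.48, 3.02 and 24.1 FPKM across the C26 muscles, against 45.5, 52.1 and 57.6 FPKM in the Control muscles. Every C26 muscle was below every Control muscle, while C26 replicate 3 was well above the other C26 muscles, so that the C26 SD exceeded the C26 mean. The mean fell from 51.7 ± 6.08 to 10.5 ± 11.8 FPKM (SD, n = 3 each), at -2.55 on the log2 scale (SE 0.72, adjusted p = 0.0360, limma), a 5.86-fold difference. The direction held with each muscle left out, but the call did not. The adjusted p (limma) was 0.121 without C26 replicate 1, 0.0963 without C26 replicate 2, and 0.0922, 0.0885 and 0.0736 without Control replicates 1, 2 and 3. Without C26 replicate 3 it was 0.00122, at a log2 fold change of -3.36. In an ordinary linear model on all muscles the adjusted p was 0.117, in place of the limma value.

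Mef2d (Entrez gene ID 17261), the third MEF2 factor of adult muscle, had 49.1, 41.1 and 56.6 FPKM across the C26 muscles, against 37.1, 39.0 and 30.5 FPKM in the Control muscles. The groups did not overlap, but the log2 difference of 0.66 (SE 0.22, adjusted p = 0.0587, limma) was not called. Mef2d was called in 1 of the 9 other settings, TPM without TMM scaling (0.70 on the log2 scale, adjusted p = 0.0331, limma), and in 0 of the 6 fits with a muscle left out. Quantile normalization lowered its value to 0.27 (adjusted p = 0.404, limma). The antisense gene 1700113A16Rik overlaps an exon of Mef2d, and Lysmd4 overlaps an exon of Mef2a on the opposite strand. Of the distinct stretches of 50 bases in the transcripts of these genes, 7.81% for Mef2d and 3.65% for Mef2a also lay in another gene, so a part of their reads could not be placed without strand. For Mef2c, Myod1, Myog, Myf6 and Pax7 the share was 0, and no such stretch was shared between any pair of the 9 factors.

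The composition of the MEF2 family was compared in the same way, with shares that are tied to each other by their sum. Mef2c made up 45.3%, 47.6% and 55.5% of the summed FPKM of the MEF2 genes Mef2a, Mef2c and Mef2d in the Control muscles, and 4.78%, 3.92% and 21.4% in the C26 muscles. Mef2a made up 17.8%, 16.7% and 15.1% across the Control muscles, against 42.8%, 42.7% and 28.5% in the C26 muscles. The Mef2d share was 34.0% ± 4.05 in Control and 52.0% ± 1.66 in C26 muscles (SD, n = 3 each). The groups did not overlap for any of the MEF2 shares (exact permutation test, p = 0.1 for each, the smallest possible and above 0.05). Their summed level, by contrast, overlapped between the groups, with 93.7, 77.0 and 113 FPKM across the C26 muscles, against 100, 109 and 104 FPKM in the Control muscles (exact permutation test, p = 0.5, and p = 0.8 for the sums of scaled TPM). The log2 ratio of Mef2c to Mef2a was 1.32, 1.48 and 1.84 across the Control muscles, against -3.01, -3.21 and -0.41 in the C26 muscles. It differed by -3.76 on the log2 scale, the ratio of Mef2c to Mef2d by -3.22 and the ratio of Mef2d to Mef2a by -0.54, each with p = 0.1 in the exact permutation test.

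**Figure D2:**
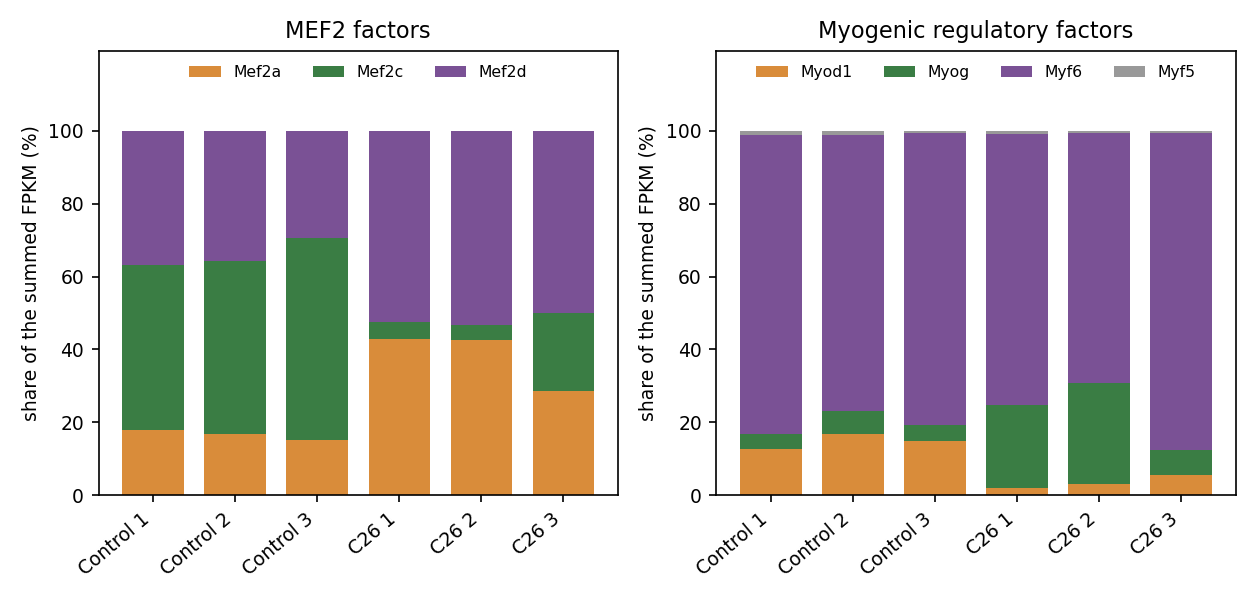
Share (%) of each gene in the summed FPKM of the MEF2 genes (left) and of the myogenic regulatory factors (right), 1 stacked bar per muscle. Mef2c takes 45.3% to 55.5% of the MEF2 sum in Control muscles and 3.92% to 21.4% in C26 muscles, and Myod1 takes 12.6% to 16.9% and 1.92% to 5.66% of the myogenic sum.

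**Figure D3:**
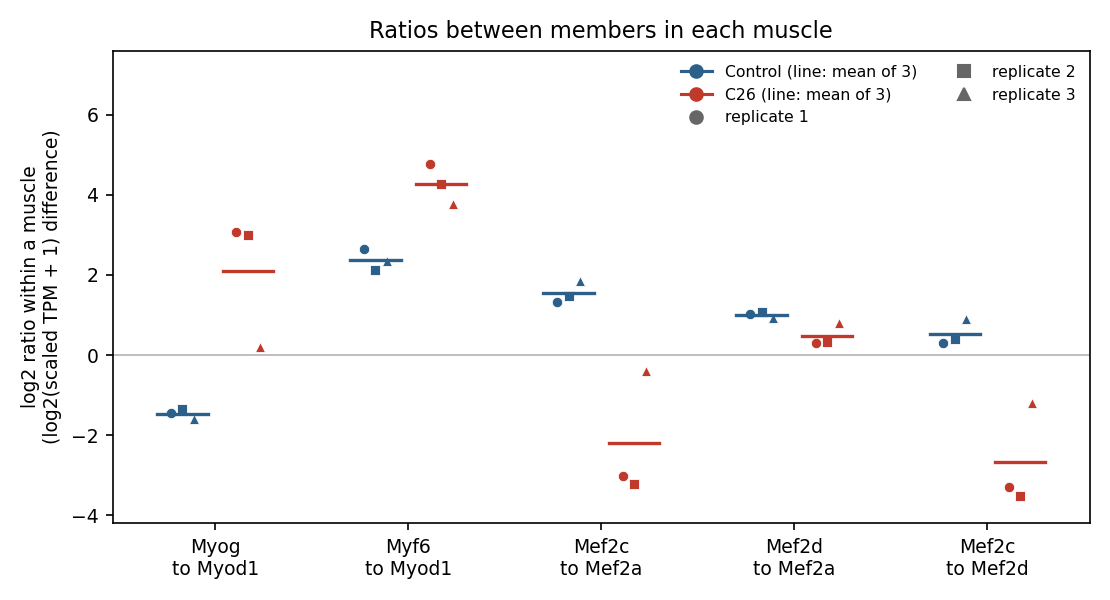
Log2 ratio of a pair of factors within each muscle, as differences of log2(scaled TPM + 1), for 3 Control (blue) and 3 C26 (red) muscles with group means as lines. For each of the 5 ratios the groups lie apart, with C26 replicate 3 the closest C26 muscle to the Control muscles.

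Pax7 (Entrez gene ID 18509), which marks satellite cells, the stem cells of muscle, was low in every muscle. It had 0.19, 0.26 and 0.35 FPKM across the C26 muscles, against 0.69, 0.46 and 0.53 FPKM in the Control muscles. The values did not overlap, and the log2 difference of -0.33 (SE 0.15, adjusted p = 0.125, limma) was not called. At this level the added constant of 1 outweighs the value. With 0.1 in its place the log2 fold change was -0.75 (adjusted p = 0.0659, limma), and with quantile normalization its sign turned, to 0.03. Of the other satellite cell and myoblast markers, 15 of 18 were listed, and Pax3, Mymk and Mymx were not. Called higher were Sdc4, Chrdl2 and Des, and Vcam1 was called lower, while 11 were not called. These 4 calls were lost without Control replicate 1, which left 0 higher and 0 lower, while 2 were called higher and 4 lower without Control replicate 3 and 1 and 0 with quantile normalization. The heparan sulfate proteoglycan Sdc4 rose with a log2 fold change of 1.45, and Des, the intermediate filament protein desmin that fibers also make, with 0.72. Vcam1, an adhesion molecule that endothelium and other cells also carry, had 5.47 FPKM in Control replicate 3 and 1.14 to 2.34 FPKM in the other Control muscles, with a log2 fold change of -1.42. The median log2 fold change of the listed markers was -0.30, and that of all genes was -0.05.

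Six4 (Entrez gene ID 20474), a homeobox factor that acts upstream of myogenic genes with its coactivators of the EYA family, had 2.59, 2.04 and 2.18 FPKM across the C26 muscles, against 1.75, 2.33 and 1.19 FPKM in the Control muscles. The groups overlapped and Six4 was not called (log2 fold change 0.47, SE 0.24, adjusted p = 0.169, limma). Among the 8 listed genes of the other myogenic, MEF2, paired box, sine oculis homeobox and EYA factors, Six2 fell and Eya3 rose, and 6 were not called. Six2 had 0.86, 1.04 and 2.44 FPKM across the C26 muscles, against 21.8, 16.5 and 19.9 FPKM in the Control muscles. That is a log2 difference of -3.17 (SE 0.31, adjusted p = 0.00247, limma), and it was larger in size than that of any of the 9 factors. For Eya3 the difference was 0.64 (log2, limma adjusted p = 0.0142).

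Hdac4 (Entrez gene ID 208727) had 3.13, 4.68 and 3.65 FPKM across the C26 muscles, against 4.99, 3.87 and 3.75 FPKM in the Control muscles. The groups overlapped and Hdac4 was not called, at 0.06 on the log2 scale (SE 0.18, adjusted p = 0.808, limma) with a 95% interval from -0.37 to 0.50. With FPKM as deposited the value was -0.12, so its direction is not settled. The antisense gene Gm26720 overlaps Hdac4, and 21.6% of its stretches of 50 bases lay in another gene. Hdac5, another class IIa deacetylase, rose from 27.5 ± 1.62 to 45.8 ± 5.89 FPKM (SD, n = 3 each, log2 fold change 0.93, adjusted p = 0.00807, limma). Hdac7 and Hdac9, also of class IIa, were called lower, with log2 fold changes of -0.87 and -0.67. Each stayed called in 1 of the 6 fits with a muscle left out, Hdac7 without Control replicate 2 and Hdac9 without Control replicate 3, with adjusted p-values (limma) of up to 0.0941 and 0.115 in the others.

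The other class II deacetylases, Hdac6 and Hdac10 of class IIb included, were examined together with kinases and 14-3-3 anchors, as 21 listed genes. Of these, 3 were called higher and 5 lower, and 13 were not called, with a median log2 fold change of -0.16. The count called lower was 1 without C26 replicate 1 or Control replicate 1, and 2 in the unmoderated model. Sik1, a salt-inducible kinase that phosphorylates class IIa deacetylases, had 39.3, 36.2 and 22.8 FPKM across the C26 muscles, against 2.40, 2.06 and 2.87 FPKM in the Control muscles. It rose, at 3.62 on the log2 scale (SE 0.20, adjusted p = 0.000822, limma), and its relative Sik3 rose with 1.54. Camk2a, a calcium-dependent kinase, fell from 83.6 ± 17.3 to 21.8 ± 5.70 FPKM (SD, n = 3 each, log2 fold change -1.71), and the 14-3-3 protein gene Ywhaq fell with a log2 fold change of -1.0. Sik3 and Ywhaq lost their calls without C26 replicate 1 or Control replicate 1. 

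Partners and inhibitors of the myogenic factors were examined as well. Of the E proteins, Tcf4 fell, at -0.74 on the log2 scale (adjusted p = 0.0255, limma), and Tcf3 and Tcf12 were not called. Tcf4 stayed called in 2 of the 6 fits with a muscle left out, those without C26 replicate 3 or Control replicate 2. Of 16 listed genes grouped as inhibitors of the myogenic factors, 6 were called lower and 2 higher (Id1 at 0.57 and Zeb1 at 0.61), with a median log2 fold change of -0.74, where 14.5% of all genes were called lower. The count called lower was 3 without C26 replicate 1, C26 replicate 2 or Control replicate 1, and the count called higher was 0 with a pseudocount of 0.1, FPKM as deposited or quantile normalization. Id1 and Zeb1 each stayed called in 2 of the 6 fits with a muscle left out. In the other fits their adjusted p-values (limma) reached 0.106 and 0.126. Bhlhe41, a repressor that is also part of the clock, fell from 14.1 ± 2.07 to 4.11 ± 0.528 FPKM (SD, n = 3 each, log2 fold change -1.44, adjusted p = 0.00423, limma). Hes1 and Hey1, repressors that respond to Notch, fell with log2 fold changes of -0.95 and -0.88, and Id4 fell with -0.88 from levels below 1 FPKM. The list also holds Sharpin, a subunit of a ubiquitin ligase complex that is not known for this role, which fell with a log2 fold change of -0.72. Without Sharpin, 5 of the genes called lower remain.

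Partners of MEF2 and of SRF, the serum response factor, were examined as a list that also holds Srf, TEAD and NFAT factors, cofactors of TEAD and the MEF2 repressor gene Cabin1. Of 19 listed genes, 5 were called higher and 3 lower, with a median log2 fold change of 0.06. This balance turned with the scaling, to 2 higher and 6 lower with FPKM as deposited and 2 higher and 5 lower with quantile normalization. It also moved with single muscles, to 1 higher and 2 lower without C26 replicate 1, C26 replicate 2 or Control replicate 1. Mamstr, a coactivator of MEF2, fell from 19.9 ± 4.60 to 1.84 ± 0.328 FPKM (SD, n = 3 each, log2 fold change -2.87, SE 0.22, adjusted p = 0.00135, limma). Mrtfa, a coactivator of SRF, fell with a log2 fold change of -1.95, and Srf itself was not called. Vgll2, a muscle cofactor of TEAD factors, rose from 17.3 ± 6.10 to 107 ± 26.5 FPKM (SD, n = 3 each, log2 fold change 2.82, adjusted p = 0.00393, limma). Its relative Vgll4 fell with -0.90. With a muscle left out, Vgll4 stayed called in 2 and Carm1 in 3 of the 6 fits. The arginine methyltransferase Carm1 rose with 1.24, at 85.0 and 87.2 FPKM in C26 replicates 1 and 2 and 40.3 FPKM in C26 replicate 3. 

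**Figure D4:**
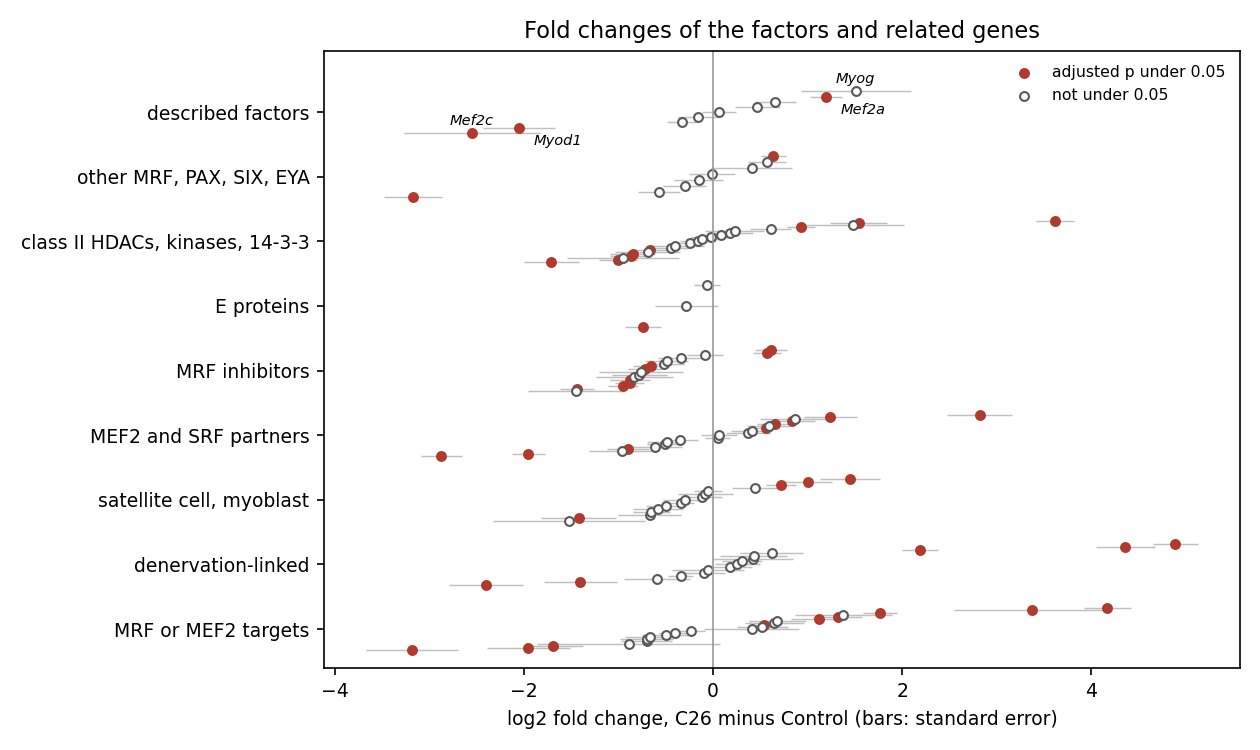
Log2 fold change (C26 minus Control, bars are the standard error) of the 9 described factors and of 8 lists of related genes, each point a gene. Filled points have an adjusted p under 0.05 (limma), and each list except that of the E proteins holds genes on both sides of 0.

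Genes downstream were examined as 2 lists. Of the 21 genes known as targets of the myogenic or MEF2 factors, 6 were called higher and 3 lower, with a median log2 fold change of 0.41. With FPKM as deposited 5 were called higher and 9 lower, and with quantile normalization 6 and 6, so the balance depends on the scaling. It also depends on single muscles, with 6 higher and 7 lower without C26 replicate 3. Without C26 replicate 1 or Control replicate 1 the counts were 2 and 2. The cell cycle inhibitor gene Cdkn1a rose with a log2 fold change of 4.17, the actin-binding protein gene Xirp1 with 3.37 and the coactivator gene Ppargc1a with 1.77. The cardiac actin gene Actc1 fell with a log2 fold change of -3.18 and the fast myosin light chain gene Mylpf with -1.95. Xirp1 had 494 FPKM in C26 replicate 2 and 80.2 and 45.0 FPKM in the other C26 muscles. Of the 15 listed genes linked with Myog and Hdac4 in denervated muscle, 3 were called higher and 2 lower. The ubiquitin ligase genes Trim63 and Fbxo32 rose with log2 fold changes of 4.89 and 4.36, and Gadd45a rose with 2.19. Chrne, the subunit of the adult acetylcholine receptor, fell with -2.40, and the enolase gene Eno3 fell with -1.40. The receptor genes Chrna1, Chrnb1 and Chrnd and the kinase gene Musk, all known to rise after denervation, were not called. Over the 117 listed genes of these lists without the 9 factors, 23 were called higher and 22 lower, shares of the same order as those of all genes, and with FPKM as deposited 17 were called higher and 32 lower. Of the 32 named genes in these lists, 17 stayed called whichever muscle was left out, among them Six2, Sik1, Mamstr, Mrtfa, Vgll2, Trim63, Fbxo32, Cdkn1a and Chrne. The other 15 lost the call in at least 1 of the fits. They were Carm1, Chrdl2, Des, Eno3, Eya3, Hey1, Mylpf, Sdc4, Sharpin, Sik3, Tcf4, Vcam1, Vgll4, Xirp1 and Ywhaq. Without Control replicate 1 these 15 had adjusted p-values from 0.0506 to 0.101 (limma), and without C26 replicate 1 the call was lost for 14 of them, Sdc4 being the exception. Vcam1 was the only named gene to lose its call without C26 replicate 3 (adjusted p = 0.0521, limma), and Eno3 lost its call without each of the other 5 muscles.

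C26 replicate 3 differed from the other C26 muscles in several of the factors, and its values are given here together. Relative to the Control mean, Mef2c differed by -3.17 and -3.70 on the log2 scale in C26 replicates 1 and 2 and by -0.78 in C26 replicate 3. Myog was higher by 1.65, 2.64 and 0.23 in the same order. Myod1 differed by -2.90, -1.82 and -1.44, and Mef2a by 1.39, 1.06 and 1.17, so these factors were changed in each C26 muscle. The summed FPKM of the myofiber markers was 89800, 74700 and 113000 in C26 replicates 1, 2 and 3 and 168000 to 187000 in the Control muscles. The part of this difference in the results for Myog and Mef2c was not tested.

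Markers of other cells also moved with the groups. The 8 adipocyte markers, such as Adipoq, summed to 251 to 389 FPKM in C26 muscles and 544 to 4260 FPKM in Control muscles, and the 8 fibroblast markers, such as Col1a1, to 174 to 230 and 407 to 540 FPKM. The 6 endothelial markers summed to 45.9 to 48.8 and 58.0 to 87.4 FPKM. The 6 markers of Schwann cells and nerve overlapped, at 12.6 to 31.4 and 22.8 to 78.4 FPKM, as did the 5 listed of 7 immune markers, at 8.58 to 250 and 5.85 to 55.3 FPKM. Single genes made up most of the highest immune sums, with Cd68 at 247 FPKM in C26 replicate 2 and Ptprc at 40.1 FPKM in Control replicate 3, against 0.23 to 0.81 FPKM for Ptprc in the other muscles. The 4 listed of 5 red blood cell markers summed to 615 to 1190 and 329 to 508 FPKM. Of 7 epithelial markers that tumor cells could bring, Epcam, Cdx2 and Vil1 were not listed and the other 4 summed to at most 1.48 FPKM in any muscle. The part of these cells in the values of the factors was not tested.

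The order of levels also differed between the groups. In Control muscles the mean FPKM ran from Myf6 (80.5) through Mef2c (51.7), Mef2d (35.5), Mef2a (17.3), Myod1 (14.8), Myog (5.01), Hdac4 (4.20) and Six4 (1.76) to Pax7 (0.56), and overlapping neighbors in this order were Mef2a with Myod1 and Myog with Hdac4. In C26 muscles Mef2c had moved down to rank 5 and Myod1 to rank 7. There the order was Myf6 (62.6), Mef2d (49.0), Mef2a (35.0), Myog (16.8), Mef2c (10.5), Hdac4 (3.82), Myod1 (2.91), Six4 (2.27) and Pax7 (0.267). Of these neighbors, Mef2d and Mef2a did not overlap, nor did Mef2a and Myog or Six4 and Pax7.

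The genes closest to each factor were sought by the root mean square distance of log2 values over the 6 muscles, each gene centred on its own mean, among genes with a mean of at least 1 TPM. Mpp3 lay closest to Myod1 (distance 0.21), Camk2d to Myog (0.18), Atad3a to Mef2a (0.03), Sorbs2 to Mef2c (0.20) and Pcmtd2 to Mef2d (0.07). For the factors that were neither called nor far from 0, the closest were Shisa4 for Myf6, Dtwd2 for Pax7, Lrig1 for Six4 and Arl14ep for Hdac4, at distances from 0.03 to 0.07. Camk2d, a calcium-dependent kinase gene, shared the split of the C26 muscles seen for Myog, with 23.9, 47.7 and 8.26 FPKM across the C26 muscles, against 7.77, 8.57 and 8.99 FPKM in the Control muscles. The distances are given as a description.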

How the data were processed

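Gastrocnemius RNA from 3 C26 and 3 Control muscles was compared, with groups and replicate numbers taken from the sample titles. The deposited FPKM were made by the authors, who removed adaptor, low-quality and rRNA reads, aligned single-end reads of 50 bases with bowtie2 to GRCm38.p5 and estimated expression by RSEM. The processing notes of the submitters list Bowtie2 2.2.5, HISAT2 2.0.4 and RSEM 1.2.12 and name the build mm9 instead, and the extraction text of the labels names THP-1 cells beside the muscles. Gene IDs, not coordinates, joined the data with symbols (13327 of 13363 matched to RefSeq, GRCm38.p6). Every listed gene had at least 0.01 FPKM in every muscle, with values given to 2 decimals. Genes without reads in a muscle may thus be among those not listed.

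FPKM were rescaled to TPM and divided by TMM factors computed in R (30% of log ratios and 5% of levels trimmed, no precision weights, since these assume counts). A pseudocount of 1 was added before log2, and C26 and Control were compared with limma 3.58.1 under R 4.3.3. The fit was tested on simulated data. Shares and ratios were compared with two-sided exact permutation tests. Named were the 9 factors, up to 5 called genes with the largest changes in each list, and the gene closest to each factor. Other genes given with values (Myf5, Hdac7, Hdac9, Id1, Zeb1, Fabp4, Dcn, Cd68 and Ptprc) were chosen after their values were seen. Also outside this rule, Srf, Tcf3, Tcf12, Chrna1, Chrnb1, Chrnd and Musk were named as genes not called. The members and lists were chosen with earlier results of these data known. Alternatives were quantile normalization, FPKM as deposited, TPM with no TMM step, a pseudocount of 0.1, a filter on mean TPM (1 or more), a replicate block, an intensity trend, an unmoderated model, each muscle left out, and, added after seeing the data, TMM with precision weights. Figures were drawn with matplotlib 3.10.9 under Python 3.11.15.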

Additional observations from a re-analysis of the deposited data

How the results depend on the processing

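Mef2a kept its call in all settings tried, and Myod1 in all but the unmoderated model. The count of factors called higher was 1 in the main analysis, 2 with TPM without TMM (Mef2d added), 2 with the replicate block (Myog added, adjusted p = 0.0491, limma) and 1 to 2 with each muscle left out. The count called lower was 2, 0 in the unmoderated model and 1 to 2 with each muscle left out. Of the related genes, 23 were called higher and 22 lower, against 11 and 10 in the unmoderated model, and with each muscle left out 9 to 27 and 10 to 27. The replicate block called 15 of them higher and 17 lower, and FPKM as deposited called 17 higher and 32 lower. Over all genes 4521 were called, 2485 in the unmoderated model and 1800 to 5471 with a muscle left out. Signs turned for values that were not called. Hdac4 was -0.12 with FPKM as deposited and between -0.05 and 0.18 with a muscle left out. Myf6 was between -0.28 and 0.02 with a muscle left out and between -0.56 and -0.13 in the other settings. Pax7 was 0.03 with quantile normalization. FPKM as deposited moved the median over all genes, on the log2 scale, from -0.05 to -0.14 and the share of calls that were higher from 57.3% to 40.1%. Deviations of same-numbered muscles from their group means had correlations of -0.0394, -0.0843 and -0.112. Those of muscles with different numbers lay between -0.1 and 0.125. Deviations from a mean of 3 muscles are tied to each other, so whether the numbers pair the muscles cannot be told from these values. The 5 ratios between factors kept their direction with a pseudocount of 0.1, with FPKM as deposited and with each muscle left out, with Myog to Myod1 between 3.06 and 4.52 and Mef2c to Mef2a between -4.67 and -3.25 with a muscle left out. Depth is unknown, so the counting error of the lowest genes, Pax7 among them, could not be given.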
